A study of Mus musculus with 2 samples.

Results

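The cells described here are non-cycling roof plate-like cells that carried transcripts of Wnt1, Rspo3 and Msx1. They were taken from 2 single-cell RNA sequencing libraries of day 9 cultures differentiated from MM13, a mouse embryonic stem cell line. The RA+BMP4 culture received retinoic acid and bone morphogenetic protein 4, and the RA culture received retinoic acid without BMP4. A member had at least 1 unique molecular identifier (UMI, a count of captured transcripts) of Wnt1, at least 1 of Rspo3, at least 2 of Msx1, no Olig3, fewer than 2 of Cp and fewer than 3 of Top2a, Mki67 and Cenpf together. These conditions were met by 864 of 8650 RA+BMP4 cells and 101 of 6038 RA cells that had 1000 genes or more and no more than 10% mitochondrial UMIs. Each condition was 1 library, so no difference was tested, and every interval in brackets is a 95% interval that covers counting error only.

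The roof plate is the strip of cells at the dorsal midline of the neural tube. It secretes BMP and Wnt ligands that pattern the progenitors beside it, and the transcription factor Lmx1a is required to form it. R-spondins such as Rspo3 amplify Wnt signalling at the receptor, and Msx1 is a homeobox gene that BMP signalling induces in dorsal neural cells.

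The RA+BMP4 members held 9302424 UMIs in all and the RA members 1394777. The median member had 10139.5 UMIs and 3728 genes in RA+BMP4, against 13352 UMIs and 4089 genes in RA. The median mitochondrial share was 4.41% in RA+BMP4 members and 6.51% in RA members, a difference also present between all passing cells, at 4.22% in RA+BMP4 and 6.06% in RA. Scrublet called 45 RA+BMP4 members (5.21%) and 6 RA members (5.94%) as doublets, and they were kept. The libraries shared 22 barcodes among passing cells and 0 among members. The part of depth and mitochondrial share in the differences given here was not tested.

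Some members lay at the limits of the rule. Exactly 1 Wnt1 UMI was found in 208 RA+BMP4 members (24.1%) and 34 RA members (33.7%), exactly 1 Rspo3 UMI in 118 (13.7%) and 22 (21.8%), and exactly 2 Msx1 UMIs in 99 (11.5%) and 15 (14.9%). Cells that met every condition except Wnt1 and had none of it numbered 228 in RA+BMP4 and 40 in RA, and those lacking only Rspo3 numbered 145 and 41. Cells with 1 Msx1 UMI that met all else numbered 103 and 12. No cycling gene UMI was found in 452 RA+BMP4 members (52.3%) and 49 RA members (48.5%), and 2 in 102 (11.8%) and 14 (13.9%). Exactly 1 Cp UMI was found in 155 (17.9%) and 36 (35.6%). At equal depth, the median member of both libraries had 4 UMIs of S phase genes, and the highest 46 and 28. For G2 and M phase genes the median was 9 in both, and the highest values 61 and 38. The name non-cycling thus rests on the cycling gene limit alone. The medians per member were 3 Wnt1, 4 Rspo3 and 6 Msx1 UMIs in RA+BMP4 and 2, 3 and 6 in RA.

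Members made up 9.99% of passing RA+BMP4 cells [9.36 to 10.6] and 1.67% of passing RA cells [1.36 to 2.03], a ratio of 5.97. Members were also set against their nearest neighbours. Wnt1, Rspo3 and Msx1 at the same minimums were found together in 1745 RA+BMP4 cells and 488 RA cells, and members were 49.5% of these in RA+BMP4 [47.1 to 51.9] and 20.7% in RA [17.2 to 24.6]. Cells that differed from members only by 3 or more UMIs of the cycling genes were 23.0% in RA+BMP4 and 20.3% in RA. Those that differed only by Olig3, a gene of dorsal progenitors, were 12.8% and 7.99%. Those that differed only by 2 or more UMIs of Cp, the ceruloplasmin gene, were 3.95% in RA+BMP4 and 17.2% in RA. The remaining cells, a larger part in RA, differed from members in more than 1 condition. The median depth of all cells with the 3 genes was 11269 UMIs in RA+BMP4 and 18525 in RA. Deeper cells pass the upper limits on Olig3, Cp and cycling genes less easily, and the part of depth in these shares was not tested. Without the conditions on Olig3 and Cp the shares were 13.5% of RA+BMP4 cells and 3.91% of RA cells, and the ratio was 3.45. A stricter cell filter of 2000 genes and 5% mitochondrial UMIs left 598 RA+BMP4 members and 7 RA members and a ratio of 17.6.

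**Figure D1:**
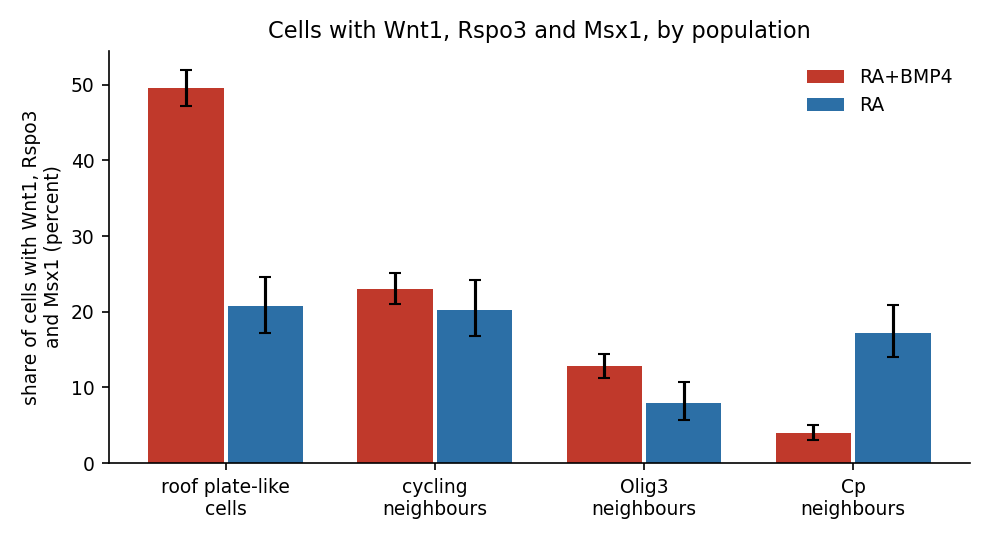
Share of the cells with Wnt1, Rspo3 and Msx1 (percent, vertical axis) that were members or differed from them in 1 condition, in RA+BMP4 (red, 1745 cells) and RA (blue, 488 cells). Bars are shares in 1 library each and lines are exact 95% intervals of counting error. Cells that differed in more than 1 condition, a larger part in RA, are not shown. Members were 49.5% in RA+BMP4 and 20.7% in RA, and Cp neighbours were 3.95% and 17.2%.

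For the name, 3 further roof plate markers that the rule did not use were looked at. They were chosen with earlier results of these data known, so they are no independent check of the name. After each cell was thinned to 5000 UMIs, which left 853 RA+BMP4 and 100 RA members, Pla2g7, a phospholipase gene, had a UMI in 65.7% of RA+BMP4 members [62.4 to 68.8] and 53% of RA members [42.8 to 63.1]. Lmx1a had one in 25.7% [22.8 to 28.7] and 28% [19.5 to 37.9]. Wnt3a, a canonical Wnt ligand gene of the dorsal midline, had one in 23.4% [20.6 to 26.4] and 14% [7.87 to 22.4]. Collagen-producing cells without Sox2, Sox3 or Wnt1 served as the background from free RNA. Their median depth was 16552.5 UMIs in RA+BMP4 and 25489 in RA before thinning, and at 5000 UMIs Pla2g7 was found in 2.20% and 2.72% of them, Lmx1a in 1.02% and 0.604%, and Wnt3a in 0.338% of RA+BMP4 cells and 0 of 331 RA cells, which allows a share of up to 0.906%. All 3 markers thus stood above the background in members of both libraries, with Lmx1a in a minority of members at this depth. Without thinning, Lmx1a was found in 44.7% of RA+BMP4 members and 50.5% of RA members. Gdf7, a roof plate ligand gene outside these 3, was found at 5000 UMIs in few RA+BMP4 members and in none of the RA members. The comparison was with collagen cells only, so it does not set members apart from their dorsal neighbours.

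Other dorsal genes were shared by the members of both libraries. The neural stem cell factor Sox2 had a UMI in 74.2% of RA+BMP4 members and 69% of RA members, and the dorsal neural tube factor Pax3 in 39.0% and 39%, against 2.20% and 2.72% of collagen cells for Pax3 (collagen cells were chosen without Sox2). Zic1, a zinc finger gene of the dorsal neural tube, had 243 CPM (the gene's UMIs summed over cells, per 1000000 UMIs) in RA+BMP4 members and 247 in RA members. Members of neither library had a count of Ptf1a, Gsx2, Nkx6-1, Nkx2-2, Olig2, Foxa2 or Shh, which mark progenitors further from the dorsal midline or the floor plate. Other progenitor factors were present. The list of 20 dorsoventral progenitor factors summed to 76.4 CPM in RA+BMP4 members and 93.2 in RA members. All other cells had 170 and 167, and the collagen cells 111 and 48.9. After thinning, 29.9% of RA+BMP4 members and 32% of RA members had a UMI of this list. Neural crest genes summed to 197 CPM in RA+BMP4 members and 206 in RA members, against 272 and 237 in all other cells, and Sox10 had 0 counts in RA members. Mesenchyme genes summed to 174 and 143 CPM, against 665 and 542 in all other cells. The collagen cells had 3593 and 4394, but they were chosen on Col1a1, Col1a2 and Col3a1, which are in this list. Choroid plexus and ependyma genes summed to 93.5 and 86.0 CPM. That was above all other cells, at 56.9 and 69.9, and above the collagen cells, at 58.2 and 61.2. Of 4 measured genes of that list, 1 was at least 2-fold above other cells in both libraries, beside 459 of 10752 genes. Surface ectoderm genes summed to 21.6 and 30.8 CPM, against 95.8 and 103 in all other cells.

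**Figure D2:**
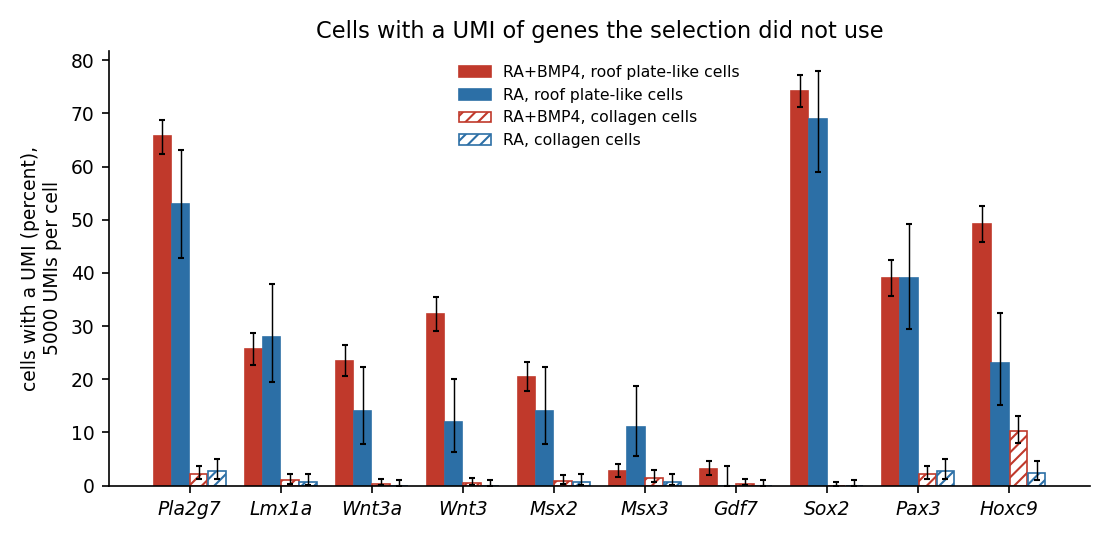
Share of cells with at least 1 UMI at 5000 UMIs per cell (percent, vertical axis) for genes outside the rule, in roof plate-like cells (filled) and collagen cells (hatched) of RA+BMP4 (red) and RA (blue). Lines are exact 95% intervals of counting error, and collagen cells were chosen without Sox2. Pla2g7, Lmx1a and Wnt3a stood above the collagen cells in both libraries, and Wnt3 and Hoxc9 were found in more RA+BMP4 than RA members.

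Next to all other passing cells, members of both libraries had more Pla2g7, Kcnn3, Ntrk2 and Ptprz1. Of 7091 genes with enough counts, 260 (3.67%) reached a 2-fold excess in members over other cells in both libraries, and 419 (5.91%) a 2-fold deficit. The members were chosen by expression, so these values describe the choice. The leading gene outside the rule was Pla2g7, with 354 CPM in RA+BMP4 members and 277 in RA members, against 69.9 and 27.7 in other cells. Kcnn3, a calcium-activated potassium channel gene, had 87.5 and 57.4 CPM in members, against 18.6 and 7.28 in other cells. Ntrk2, which encodes the BDNF receptor TrkB, had 660 and 348 CPM, against 180 and 83.1. Ptprz1, a receptor phosphatase gene of radial glia, had 307 and 278 CPM, against 85.5 and 56.3. The cholesterol transporter gene Abca1 had 86.4 and 93.9 CPM, against 23.9 and 17.9. Cpne2, Myh8, Naaa, Ptpro, Pcp4l1, Glis3, Metrnl, Fam181b, Cd9 and Fndc5 completed the 15 highest ratios. In the neural progenitor and radial glia list, 5 of 18 measured genes were at least 2-fold above other cells in both libraries and 1 was below, beside 459 and 490 of 10752 genes that reached 5 CPM. Rfx4, Slc1a3, Prom1, Sox9 and Dbi were above and Fabp5 below. Fabp7, a fatty acid binding protein gene of radial glia, reached 2563 CPM in RA+BMP4 members and 2747 in RA members, against 948 and 1486 in other cells.

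The neighbours differed from members to unequal extents. Against the cycling neighbours, 13 of 6858 genes (0.19%) were higher and 283 (4.13%) lower in members of both libraries. The genes lower in members were led by the mitotic genes Nusap1, Aspm, Kif11 and Hmmr, which the cycling condition selects, while Abca1, Brinp2, Myh8 and Stra6 led those higher. Against the Olig3 neighbours, 1 gene of 6664 (0.015%) was higher and 3 (0.045%) were lower. Of the 223 RA+BMP4 and 39 RA Olig3 neighbours, 156 and 21 had exactly 1 Olig3 UMI. Most thus differed from members by 1 captured transcript, and members whose Olig3 was missed cannot be told from cells without it. Against the Cp neighbours, 24 of 6718 (0.357%) were higher and 91 (1.35%) lower. Colec12, a scavenger receptor gene, had 79.5 CPM in RA+BMP4 members and 156 in RA members, against 449 and 655 in their Cp neighbours. The axon guidance gene Sema3a had 36.1 and 28.0 CPM, against 146 and 188. The Cp neighbours had less of Fabp7, at 2563 and 2747 CPM in members against 1288 and 828, and of the transcription factor gene Pou3f2, at 154 and 67.4 CPM in members against 72.9 and 17.7.

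Within the members, the libraries differed at few genes. Among 7109 genes that reached 20 CPM in either library, 163 (2.29%) were 2-fold or more apart, 124 (1.74%) of them higher in RA+BMP4 and 39 (0.549%) lower, and the median log2 ratio over all 7109 was 0.08. A count below 3 was set to 3 in ratios. For all 124 and all 39 genes the counting interval left out a ratio of 1. The minimums of 20 CPM and 2-fold already bring this about at these UMI totals, so it adds no evidence. In all other cells of the same libraries, 120 of the 124 were also above a ratio of 1 and 24 at least 2-fold higher, and 35 of the 39 were also below 1 and 4 at least 2-fold lower. In the cycling neighbours 111 of the 124 were above 1 and 36 of the 39 below 1. The median log2 ratio of all 7109 genes in the other cells was 0.08. The shares of all 7109 genes above 1, below 1 or 2-fold apart in these populations were not counted, so these numbers have no baseline. Counts of such genes depended on how members were chosen: with at least 3 UMIs each of Wnt1, Rspo3 and Msx1 they were 359 and 137, and with cells thinned before selection 409 and 169, where RA held 29 and 81 members.

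**Figure D3:**
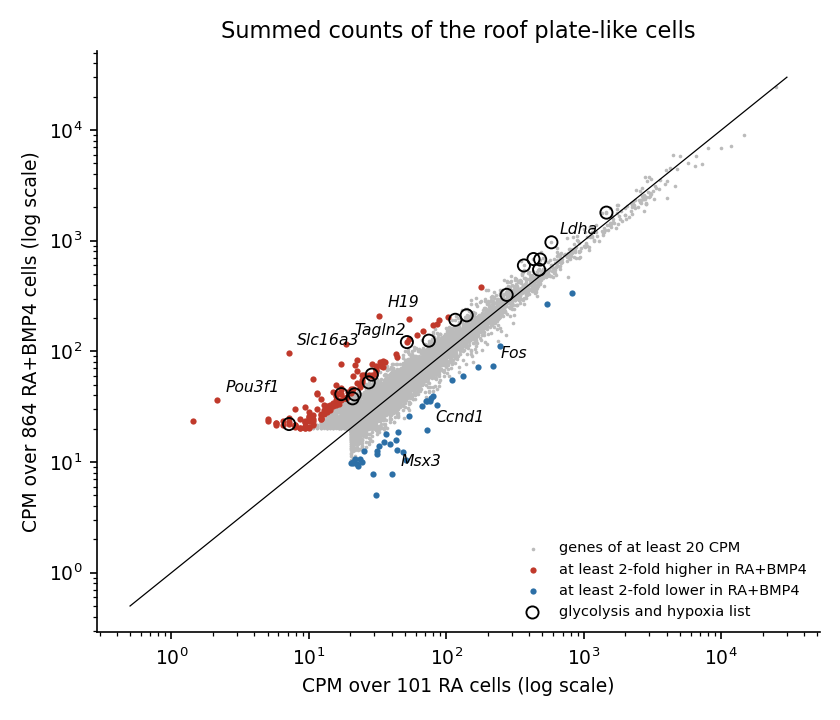
Summed counts of each gene over RA members (CPM, horizontal log axis) and RA+BMP4 members (CPM, vertical log axis), for 7109 genes that reached 20 CPM in either library. Red and blue points are at least 2-fold higher or lower in RA+BMP4, circles are the glycolysis and hypoxia list, and the line marks equality. The circles lie above the line, and Slc16a3, H19 and Tagln2 lie farthest from it among genes with over 90 CPM in RA+BMP4.

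The highest ratios included a lactate transporter, an imprinted RNA and a posterior Hox gene. Slc16a3 encodes MCT4, which exports lactate. It had 96.1 CPM (894 counts) in RA+BMP4 members and 7.17 CPM (10 counts) in RA members, a log2 ratio of 3.74 [2.86 to 4.81]. At 5000 UMIs it was found in 29.0% of RA+BMP4 members [25.9 to 32.1] and 2% of RA members [0.243 to 7.04]. Collagen cells had it in 12.9% and 11.8%, more than RA members, so they give no level of free RNA for this gene. Other cells had 77.9 CPM in RA+BMP4 and 37.4 in RA. H19, an imprinted long non-coding RNA, had 211 CPM in RA+BMP4 members and 32.3 in RA members, with a log2 ratio of 2.71 [2.28 to 3.17], and was found in 36.6% and 5% of them at 5000 UMIs. Collagen cells of both libraries had it in 44.0% and 47.4%, more than RA members, and so give no level of free RNA for H19 either. Tagln2, an actin-binding protein gene, had 118 CPM in RA+BMP4 members and 18.6 in RA members, with a log2 ratio of 2.66 [2.10 to 3.28].

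Several of the other highest ratios rested on few RA counts. Pou3f1, a POU factor gene, had 336 counts in RA+BMP4 members and 3 in RA members, a log2 ratio of 4.07 [2.51 to 6.35]. The ratio was 2.10 without called doublets, 1.85 in members with few neuron list UMIs and 1.19 when cells were thinned before selection. It was more abundant outside the members, at 195 CPM in RA+BMP4 and 86.8 in RA. Hoxa9 had 24.5 and 5.02 CPM in members, and Ednra, the endothelin A receptor gene, 23.6 and 5.02. The microfibril gene Mfap2 had 84.3 and 22.2 CPM. Vstm2l had 56.2 and 10.8 CPM, with 33.3% of its RA counts in 1 cell. Ccdc182, Grin2c, Krt20 and Magohb completed the list, each with at most 11 counts in RA.

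The lowest ratios included cyclin D1 and the dorsal homeobox gene Msx3. Msx3 marks dorsal neural tube progenitors in the mouse. It had 7.74 CPM in RA+BMP4 members and 40.2 CPM in RA members, a log2 ratio of -2.38 [-2.90 to -1.84], and at 5000 UMIs a UMI in 2.70% and 11% of them, against 1.52% and 0.604% of collagen cells. It was also lower in RA+BMP4 among other cells, at 34.8 CPM against 65.2 in RA, and in the Olig3 neighbours, at 17.9 against 88.1. Its log2 ratio was -1.26 with cells thinned before selection and -0.56 in members with at least 3 UMIs each of Wnt1, Rspo3 and Msx1. Ccnd1, the cyclin D1 gene, had 19.3 CPM in RA+BMP4 members and 71.7 in RA members, with a log2 ratio of -1.89 [-2.25 to -1.52], and was 79.7 and 123 CPM in other cells. Cldn10, a tight junction gene, had 10.5 and 50.9 CPM, and the metallothionein gene Mt2 12.4 and 48.8. Fos, an immediate early gene, had 74.0 and 217 CPM, with 268 and 710 in the Cp neighbours. Trap1a led the list, but its RA counts came from 6 cells and 32.6% of them from 1 cell. Nhs, Shroom2, Fosb, S1pr3, Sh3kbp1 and Sat1 were the others.

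The lists of BMP response genes and of BMP receptors and Smads held 0 genes that were 2-fold apart between the members. Members of both libraries had been chosen on Msx1, itself a gene that BMP signalling induces. List members needed 5 CPM in 1 library, and among the 10752 genes that did, 516 (4.8%) were 2-fold or more higher in RA+BMP4 and 196 (1.82%) lower, with a median log2 ratio of 0.09. In the BMP response list, 0 of 11 measured genes were 2-fold apart, and the median was 0.04. Id1, a direct BMP target, had 342 CPM in RA+BMP4 members and 332 in RA members, a log2 ratio of 0.04 [-0.10 to 0.18]. Id3 had 876 and 1012 CPM, and Msx2 44.7 and 32.3. Of these 11 genes, 6 were at least 2-fold above other cells in both libraries. BMP receptors and Smads had 0 of 9 genes 2-fold apart and a median of 0.03, with the receptor gene Bmpr1b at 61.4 and 55.9 CPM.

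Among BMP and activin ligands, 2 of 9 were at least 2-fold higher in RA+BMP4 and 0 lower, with a median of 0.08. Bmp6 had 57.0 CPM in RA+BMP4 members and 53.8 in RA members, and Gdf10 had 47.6 and 76.0. Gdf7, the ligand most closely tied to the roof plate, had 54 counts in RA+BMP4 members and 1 in RA members. At 5000 UMIs it was found in 3.17% of RA+BMP4 members [2.10 to 4.57] and 0 of 100 RA members, which allows a share of up to 3%. Without thinning it was found in 5.90% and 0.990% of members. Among BMP inhibitors, 3 of 10 were at least 2-fold higher and 0 lower, with a median of 0.15. Sostdc1, a secreted inhibitor of BMP and Wnt signalling, had 137 and 109 CPM, while Bmper had 24.5 and 8.60 and Nog, the noggin gene, 12.8 and 5.74.

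Wnt ligands had the highest median of the signalling lists, 0.43 over 8 genes, with 1 at least 2-fold higher and 0 lower in RA+BMP4. The list holds Wnt1 and Rspo3, which the rule used. Its median was larger outside the members, at 1.14 in all other cells and 0.57 in the cycling neighbours, and was 0.25 in the Olig3 and in the Cp neighbours. Wnt3 had 73.4 CPM in RA+BMP4 members and 33.7 in RA members, a log2 ratio of 1.12 [0.70 to 1.58], and a UMI in 32.2% and 12% of them at 5000 UMIs, against 0.508% of collagen cells in RA+BMP4 and 0 of 331 in RA. Wnt3a had 52.1 and 33.7 CPM and Wnt9a 48.3 and 25.1. Wnt4 ran the other way, at 146 and 171 CPM, as did Rspo1, an R-spondin gene, at 91.2 and 155. Of 11 Wnt receptor genes 0 were 2-fold apart, with a median of 0.22. Of 16 targets and antagonists 0 were 2-fold higher and 2, Ccnd1 and the secreted Wnt inhibitor gene Wif1, were 2-fold lower, with a median of -0.04. Axin2, a feedback inhibitor that Wnt signalling induces, had 258 CPM in RA+BMP4 members and 168 in RA members, with a log2 ratio of 0.62 [0.43 to 0.82]. Lef1 had 24.2 and 13.6 CPM and Nkd1 101 and 98.2.

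Retinoic acid pathway genes had a median of 0.27 over 10 genes, with 1 at least 2-fold higher and 1 lower. Crabp1, a cellular retinoic acid binding protein gene, had 192 CPM in RA+BMP4 members and 88.2 in RA members, while its paralog Crabp2 had 35.3 and 76.0. The receptor gene Rara had 239 and 136 CPM. Of 12 Notch pathway genes 0 were 2-fold apart, with a median of 0.03.

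Hox genes record the position along the body axis. Of 13 measured genes of groups 1 to 5 and 8 of groups 6 to 8, 0 were 2-fold apart, with medians of -0.10 and 0.15. Of 3 measured genes of groups 9 to 13, 2, Hoxa9 and Hoxc9, were at least 2-fold higher in RA+BMP4 and Hoxb9 was not, with a median of 1.04 that was -0.15 under the stricter cell filter, where RA held 7 members. Hoxc9 had 175 CPM in RA+BMP4 members and 85.3 in RA members, a log2 ratio of 1.04 [0.77 to 1.32], and a UMI in 49.2% [45.8 to 52.6] and 23% [15.2 to 32.5] at 5000 UMIs, against 10.3% and 2.42% of collagen cells. Hoxb9 had 367 and 349 CPM and was found in 71.9% and 72%, against 19.5% and 9.97% of collagen cells. The Hoxc9 difference was also seen in all other cells, at 223 CPM in RA+BMP4 and 60.4 in RA.

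Neuronal transcripts were low in members but higher in RA+BMP4. The 14 neuron genes summed to 915 CPM in RA+BMP4 members and 530 in RA members, against 3698 and 3804 in all other cells and 631 and 461 in the collagen cells. Of these genes 5 were at least 2-fold higher and 0 lower, beside 4.8% and 1.82% of all genes, with a median of 0.65. The neurofilament gene Nefl had 198 and 53.8 CPM, and at 5000 UMIs a UMI in 40.9% and 20% of members, against 35.5% and 26.3% of collagen cells, which in RA exceeded the members. When only members with fewer than 10 UMIs of the neuron list per 5000 were kept, the list median was 0.04, a fall that this choice of cells itself favours. Of the 124 higher genes, 101 were still at least 2-fold higher in those members and 123 above a ratio of 1.

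**Figure D4:**
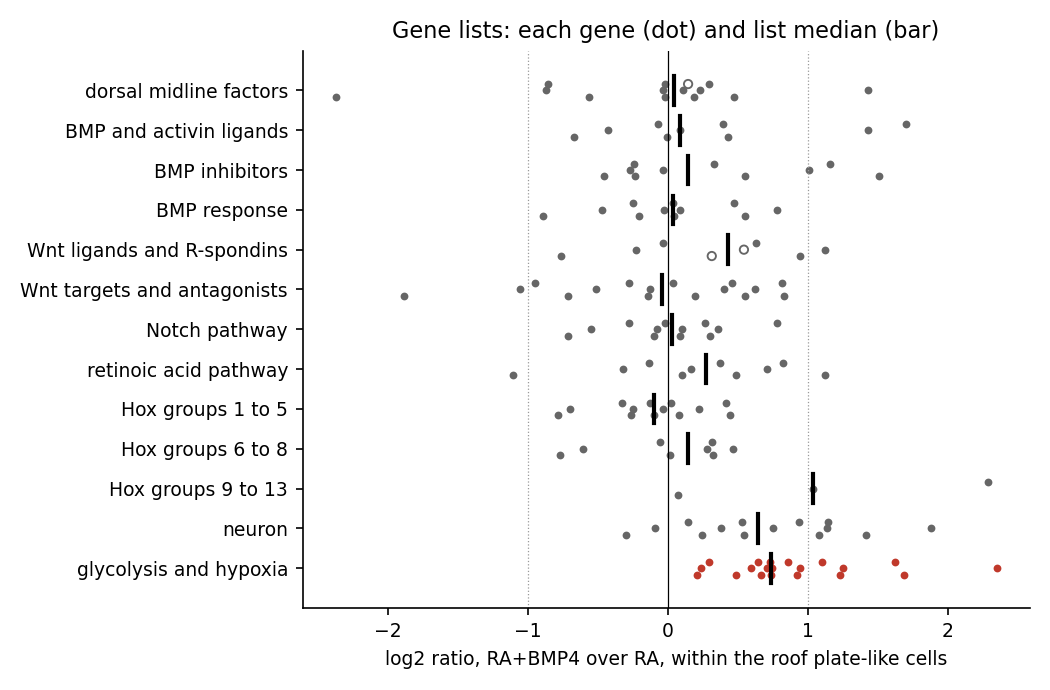
Log2 ratio of RA+BMP4 over RA within the members (horizontal axis) for each measured gene of 13 lists. Dots are genes, open dots are genes that the rule used, bars are list medians, and dotted lines mark 2-fold; a count below 3 was set to 3. The BMP response list centres at 0.04, and all 20 dots of the glycolysis and hypoxia list lie above 0, with a median of 0.74.

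The glycolysis and hypoxia list differed in one direction. Its genes encode glycolytic enzymes, glucose transporters and targets of the hypoxia-inducible factors, which bind a short sequence whose core is ACGTG or GCGTG. All 20 measured genes were above a ratio of 1, beside 6471 of 10752 genes (60.2%) in all. At least 2-fold higher were 6 of them, beside 4.8% of all genes, and 0 were 2-fold lower. The list had a median log2 ratio of 0.74, beside 0.09 over all genes. For 19 of the 20 the counting interval left out a ratio of 1. Ldha, the lactate dehydrogenase A gene, had 967 CPM in RA+BMP4 members and 581 in RA members, a log2 ratio of 0.74 [0.63 to 0.84]. Pgk1, a glycolytic kinase gene, had 597 and 366 CPM, and the triose phosphate isomerase gene Tpi1 682 and 430.

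The 6 genes that were at least 2-fold higher were Pfkp, Hk1, Hk2, Bnip3, Ankrd37 and Ddit4. Bnip3, a mitophagy receptor gene induced by hypoxia, had 121 CPM in RA+BMP4 members and 51.6 in RA members, a log2 ratio of 1.23 [0.89 to 1.6]. Ddit4, an inhibitor of mTOR signalling, had 61.6 and 28.7 CPM. The hexokinase genes Hk1 and Hk2 had 41.1 and 17.2 CPM and 22.0 and 7.17 CPM. Gapdh and Pkm, also glycolytic, differed less, at 1792 and 1460 CPM and at 547 and 472 CPM. The list median was 0.31 in all other cells, 0.08 in the cycling neighbours, 0.59 in the Olig3 neighbours and 0.62 in the Cp neighbours. Those differences between populations were not tested. Within members the median lay between 0.57 and 0.86 under the 9 alternatives other than the stricter cell filter.

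The upstream sequences of 3 genes of this pattern are shown because the genes moved together and the core could be looked for. They are the 250 bases before the RefSeq start on GRCm38.p6, in gene direction, with each ACGTG or GCGTG on either strand in capitals and overlapping matches run together. Slc16a3 lies at chr11:120948817-120949066 (plus strand, 2 matches), Bnip3 at chr7:138909507-138909756 (minus strand, 5 matches) and Ankrd37 at chr8:45999851-46000100 (minus strand, 4 matches).
Slc16a3: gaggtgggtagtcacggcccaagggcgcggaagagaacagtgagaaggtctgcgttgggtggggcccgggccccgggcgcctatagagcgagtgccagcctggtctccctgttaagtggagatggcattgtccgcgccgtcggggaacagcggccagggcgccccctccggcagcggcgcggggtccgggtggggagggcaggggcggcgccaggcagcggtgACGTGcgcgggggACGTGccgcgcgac
Bnip3: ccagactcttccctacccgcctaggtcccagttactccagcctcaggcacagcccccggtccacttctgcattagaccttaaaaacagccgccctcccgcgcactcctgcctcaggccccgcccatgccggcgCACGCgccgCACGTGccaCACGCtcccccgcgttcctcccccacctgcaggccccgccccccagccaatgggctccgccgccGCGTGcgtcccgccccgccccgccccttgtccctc
Ankrd37: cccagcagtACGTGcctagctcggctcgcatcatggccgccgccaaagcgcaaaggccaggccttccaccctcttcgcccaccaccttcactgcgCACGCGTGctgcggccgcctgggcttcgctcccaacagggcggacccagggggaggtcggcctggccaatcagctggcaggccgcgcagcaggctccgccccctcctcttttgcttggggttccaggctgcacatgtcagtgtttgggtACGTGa
Of 20 listed genes with such a window 19 held at least 1 match, with Tpi1 the exception. The share was 65.3% of the 5620 genes of at least 20 CPM in members that had a window and 41.5% of 27025 genes in all. A gene with several windows was counted if any held a match, and Hk1, Pdk1, Pkm and Vegfa also had a window with 0. Bnip3 and Ankrd37 were among the listed genes with the most matches. The list was drawn up to hold targets of these factors, so its share is not an independent finding. A match describes the letters in this window and not a bound site.

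The list also varied from cell to cell among RA+BMP4 members. At 5000 UMIs per cell the list sum had a median of 28 UMIs in RA+BMP4 members, with quartiles of 16 and 48, and a median of 21.5 UMIs in RA members, with quartiles of 15.8 and 28.2. The lower quartiles were close and the upper ones were not. Of RA+BMP4 members 61.2% were above the RA median, and of RA members 25% were above the RA+BMP4 median. Above 48 UMIs lay 207 RA+BMP4 members (24.3%) and 4 RA members (4%), with 42 and 5 cells within 2 UMIs of that limit.

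Slc16a3, which is not in the list, was higher at higher list sums among RA+BMP4 members. There it had 2.28, 16.4, 51.9 and 134 UMIs per 100 cells from the lowest to the highest of the 4 ranges cut at the RA+BMP4 quartiles. In RA members it had 0, 2.22, 4.76 and 0, over 30, 45, 21 and 4 cells. Wnt1 and Rspo3 were also higher at higher list sums in RA+BMP4, by less than Slc16a3: Wnt1 had 130, 134, 175 and 192 UMIs per 100 cells and Rspo3 216, 226, 251 and 276. Ntrk2 had 307, 305, 355 and 425. Msx1 had 351, 368, 363 and 333 and Lmx1a 28.8, 33.8, 31.2 and 34.3, with no steady rise. Tagln2 had 66.2, 55.3, 55.8 and 57.5. The rule set a minimum of Wnt1, Rspo3 and Msx1 in every member, and the rise was not particular to Wnt1 and Rspo3. Vstm2l had 18.3, 25.6, 35.6 and 49.3 UMIs per 100 cells and Hoxc9 72.1, 85.8, 89.4 and 106. Other genes fell, with the cyclin D2 gene Ccnd2 at 254, 174, 163 and 105 and Grb10 at 73.5, 63.9, 51.0 and 42.0. The median mitochondrial share was 4.67% in the lowest and 3.75% in the highest range, and the median depth 10689 and 9439 UMIs. The part of either in this pattern was not tested.

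**Figure D5:**
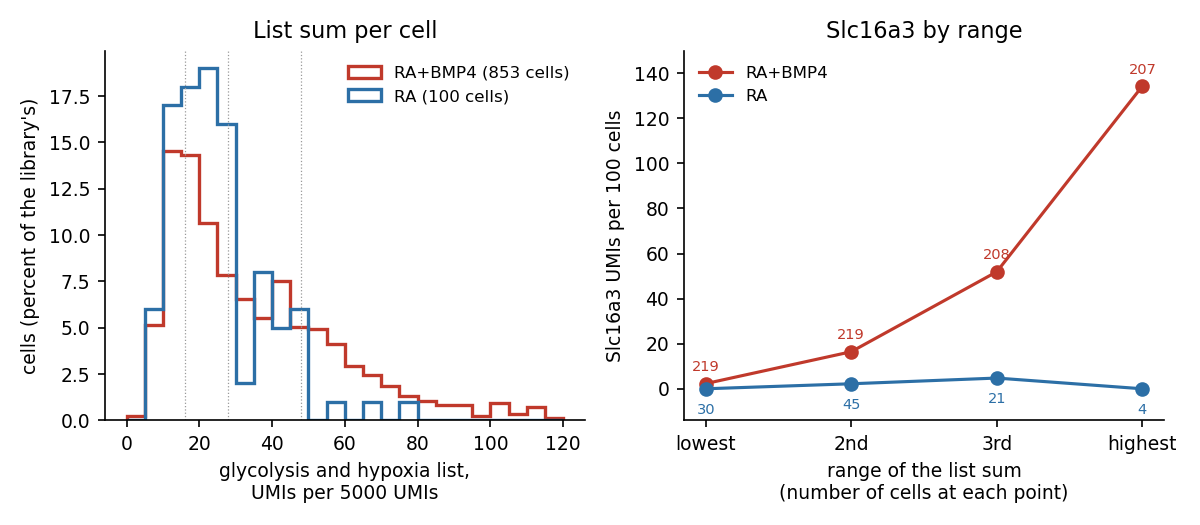
Left, glycolysis and hypoxia list UMIs per cell at 5000 UMIs (horizontal axis) against the share of members (percent, vertical axis), with dotted lines at the RA+BMP4 quartiles. Right, Slc16a3 UMIs per 100 cells in the 4 ranges between those quartiles, with the number of cells at each point, in RA+BMP4 (red) and RA (blue). The RA+BMP4 distribution extends further right, and Slc16a3 reaches 134 UMIs per 100 cells in its highest range.

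Among all genes, the widest spread over members relative to the mean belonged to Malat1, Fabp7, Ckb, Dbi, Tmsb4x, Id3, Ldha, Jun, Crabp1 and Peg3. The variance to mean ratio of Malat1, a nuclear long non-coding RNA, was 25.5 in RA+BMP4 and 28.6 in RA, that of the fatty acid binding protein gene Fabp7 11.3 and 11.8, and that of Ldha 5.70 and 3.98. The median over 3766 genes was 1.05 in both libraries, close to the value of 1 that counting alone gives.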

How the data were processed

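Single-cell libraries of day 9 MM13 cultures were made with the 10x Genomics Chromium platform, 1 per condition. Each deposited matrix holds whole-number UMI counts, not normalized. Per the submitters' processing notes, CASAVA and Cell Ranger 3.0.2 were used with the build GRCm38, and the annotation release and cell calling parameters are not given here. The files held 13121 RA+BMP4 and 9704 RA barcodes with 115268932 and 122110565 UMIs.

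Members were selected on raw UMIs as stated in the report. Members and gene lists were chosen with earlier results of these data known. Counts were summed over members per library and scaled to CPM. Genes were called apart when they reached 20 CPM in either library and differed 2-fold or more, and list members needed 5 CPM. A count below 3 was set to 3. Intervals are exact Clopper-Pearson for shares and exact conditional binomial for ratios, and a share of 0 is given with the share that 3 cells would make. Cells were thinned to 5000 UMIs without replacement, which left out 11 RA+BMP4 members and 1 RA member. Collagen cells had 20 or more UMIs of Col1a1, Col1a2 and Col3a1. Symbols that were not unique (71 features) were left out. Coordinates in the report are those of RefSeq promoter windows on GRCm38.p6. Named genes are listed genes, the 12 highest and 12 lowest ratios within members, the 15 highest ratios over other cells, the 8 highest over each neighbour, and the 10 highest variance to mean ratios, leaving out gene models, mitochondrial and ribosomal genes. Genes named as lower in members than in a neighbour were chosen after their values were seen.

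Doublets were called per library with Scrublet in scanpy 1.11.5 and were kept. Trimmed mean of M values (TMM) factors came from edgeR, used for scaling alone. Ratios were checked on simulated counts with counting error alone, in which 100% of the genes changed 4-fold were recovered at the 2-fold limit. Spread between cells and between libraries was not simulated, so this checks the calculation and not the reliability of the calls. Alternatives covered the cell filter, depth, doublets, thresholds, cell weight, scaling and CPM minimum. Those with at most 7% mitochondrial UMIs and with fewer than 10 neuron list UMIs were chosen after seeing the data.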

Additional observations from a re-analysis of the deposited data

How the results depend on the processing

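The direction of the share of members held under all 9 alternatives, with a ratio of RA+BMP4 over RA between 3.45 (no condition on Olig3 and Cp) and 17.6 (2000 genes or more and no more than 5% mitochondrial UMIs, with 7 RA members), and between 5 and 6.90 in the other 7. Genes at least 2-fold higher and lower within members numbered 324 and 974 under that stricter filter, 409 and 169 with cells thinned before selection, 359 and 137 with at least 3 UMIs each of Wnt1, Rspo3 and Msx1, 263 and 80 with no cycling gene UMI, 571 and 2536 with no CPM minimum and 39 and 17 at 50 CPM. The other 6 alternatives gave 104 to 174 higher and 36 to 49 lower. Of the 2536, 2034 had an RA count under 3, and the floor sets their sign, since 3 counts are 0.322 CPM in RA+BMP4 and 2.15 CPM in RA. Under the stricter filter 3 counts in RA were 36 CPM, so genes below that level in RA+BMP4 fell below a ratio of 1 whatever their RA count of 0 to 3, and these values say nothing of such genes; of the 974 lower genes 509 had an RA count under 3. Of the 124 higher genes, 24 were still called under the stricter filter, 70 after thinning, 80 with at least 3 UMIs, 91 with no cycling gene UMI and 98 to 106 under the other 6, and of the 39 lower genes 24 to 39 were. Above a ratio of 1 were 59 of the 124 under the stricter filter (56 of the other 65 had an RA count under 3) and 122 to 124 under the other 9. TMM and median-of-ratios factors moved log2 ratios by -0.06. Under the stricter filter the log2 ratios of Ccdc182 (-0.47), Hoxa9 (-0.63), Ednra (-0.61), Grin2c (-0.70), Krt20 (-0.72), Magohb (-0.18), Bmper (-0.41), Elavl4 (-0.28), Cdkn2d (-0.20), Rbl2 (-0.61) and Hk2 (-0.51) turned negative, all with 0 or 1 RA counts and under 36 CPM in RA+BMP4, so the floor sets their sign. The median of Hox groups 9 to 13 was -0.15, the value of Hoxb9. The median of the dorsoventral progenitor factors was 0.94 with cells thinned before selection, against -0.56. In members against Olig3 neighbours, 2 genes were higher with cells weighted equally and 83 lower after thinning, and against Cp neighbours 10 and 945 after thinning, when 62 RA+BMP4 and 8 RA Olig3 neighbours and 12 and 9 Cp neighbours were left. The cause of the other shifts was not tested. No paired analysis was possible because each condition was 1 library. With 101 RA members, a gene at 20 CPM rests on few RA counts, so small ratios of low genes are not resolved.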

Other observations

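Axon guidance cues steer growing axons, and the roof plate is one of their sources. Of 21 measured genes, 6 were at least 2-fold above all other cells in members of both libraries (Slit1, Slit2, Slit3, Sema3c, Sema6d and Efnb3) and 5 at least 2-fold below (Rgmb, Sema3d, Sema5a, Sema6a and Efna3), beside 459 and 490 of 10752 genes. Between libraries, of the 21 measured genes 1 was at least 2-fold higher in RA+BMP4 and 0 lower, with a median log2 ratio of 0.18. Of all 10752 genes, 4.8% were higher and 1.82% lower. Slit2, a repellent of midline axons, had 718 CPM in RA+BMP4 members and 798 in RA members, against 246 and 196 in all other cells. The ephrin gene Efnb3, a midline barrier cue, had 213 and 173 CPM, against 72.5 and 40.3. Rgmb, a repulsive guidance molecule gene, had 28.2 and 17.9 CPM, against 106 and 95.4, and the semaphorin gene Sema6a 31.6 and 17.9 CPM, against 65.2 and 56.0.

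Imprinted genes differed in both directions. Of 12 measured, 2 were at least 2-fold higher in RA+BMP4 and 2 lower, with a median of 0.19. Over all genes of at least 5 CPM the shares were 4.8% higher and 1.82% lower. Plagl1, a zinc finger gene, had 67.1 CPM in RA+BMP4 members and 22.2 in RA members, while Grb10, an adaptor of growth factor receptors, had 111 and 244 and Peg10 59.3 and 132. The cell cycle inhibitor gene Cdkn1c had 467 and 765 CPM. In other cells Plagl1 had 41.8 CPM in RA+BMP4 and 16.3 in RA, Grb10 96.9 and 133, and Peg10 94.4 and 99.9.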
